A study of Mus musculus with 18 samples.

Results

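Control optic nerve head was compared between 22 and 12 months of age in 5 libraries from 22-month and 5 libraries from 12-month C57BL/6J mice. These are 10 of the 18 libraries of the series, chosen by title, and the remaining 8 carry the label B6.EDA+/+ (5 libraries at 12 months and 3 at 22 months). All mice named C57BL/6J serve as controls in the labels, with no treatment given, so age is the labelled difference. Tissue of the optic nerve head was cut from sections under a microscope by laser capture microdissection, and RNA was read as low-input cDNA libraries. The labels give no sex, litter or batch and leave unsaid whether the libraries are separate animals. All p-values thus rest on the variation among libraries, part of which may be technical. Replicate numbers below are names in accession order. The values of an age are given in the order of replicates 1 to 5. The 22-month replicate 2 carries the number 20139 in its title and is rich in photoreceptor transcripts, so results are also given without it.

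At the optic nerve head the axons of retinal ganglion cells are gathered into the optic nerve. Its front part in the mouse holds axons without myelin, wrapped by astrocytes rich in the filament protein Gfap, together with vessels, microglia and connective tissue. Oligodendrocytes wrap the axons in myelin only farther back. Ageing of central nervous tissue is commonly associated with glial reactivity, complement and interferon-stimulated genes, and remodelling of the extracellular matrix. The series asked about fibrosis and inflammation at this site, where the extra domain A of fibronectin is known as a ligand of Toll-like receptor 4.

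The control libraries held 13577539 to 15790011 expected counts at 22 months and 13097498 to 17976988 at 12 months. Mean totals were 14707580 ± 966479 and 15580580 ± 1773865 (SD, n = 5 each; exact two-sided permutation p = 0.373). Genes with 10 or more reads numbered 11827 ± 1224 at 22 and 11699 ± 890 at 12 months (SD, n = 5 each; exact permutation p = 0.857). A single gene without a symbol, ENSMUSG00000119584, took 21.7% ± 8.82 and 20.2% ± 8.33 of reads (SD, n = 5 each; exact permutation p = 0.778). Each of these 3 p-values became 0.857 after adjustment over the 3 measures, and the smallest p that 5 against 5 libraries allow is 0.00794. Spearman's rank correlation over genes between libraries had a median of 0.828 within 22 months, 0.842 within 12 months and 0.834 across the ages, as a description. Xist exceeded the Y-linked transcripts in 2 control libraries, 12-month replicates 1 and 2.

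The tissue label was checked against defining markers on the length-scaled TPM level. The median over the control libraries was 4450 TPM for the astrocyte filament gene Gfap, 1450 TPM for glutamine synthetase (Glul) and 14.1 TPM for the axonal neurofilament gene Nefl. Endothelial Pecam1 had a median of only 0.12 TPM, while Cldn5 and Cdh5, also endothelial, had 3.35 and 7.33 TPM. The cone gene Arr3 was at 0 in all 10 libraries.

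RNA of other tissue varied between libraries of the same age. The 33 listed photoreceptor genes took 0.416% of reads in 22-month replicate 2 and 0.0313% to 0.0724% in the other 22-month libraries, against 0.0425% to 0.0667% at 12 months. The listed myelin genes took 3.54% of reads in 22-month replicate 3 and 0.133% to 0.363% in the other 22-month libraries. At 12 months the myelin share was 0.907% and 1.07% in replicates 1 and 2, and 0.0637% to 0.352% in the others. The 12-month replicates 1 and 2, in which Xist exceeded the Y-linked transcripts, were thus the 12-month libraries with most myelin RNA.

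**Figure D1:**
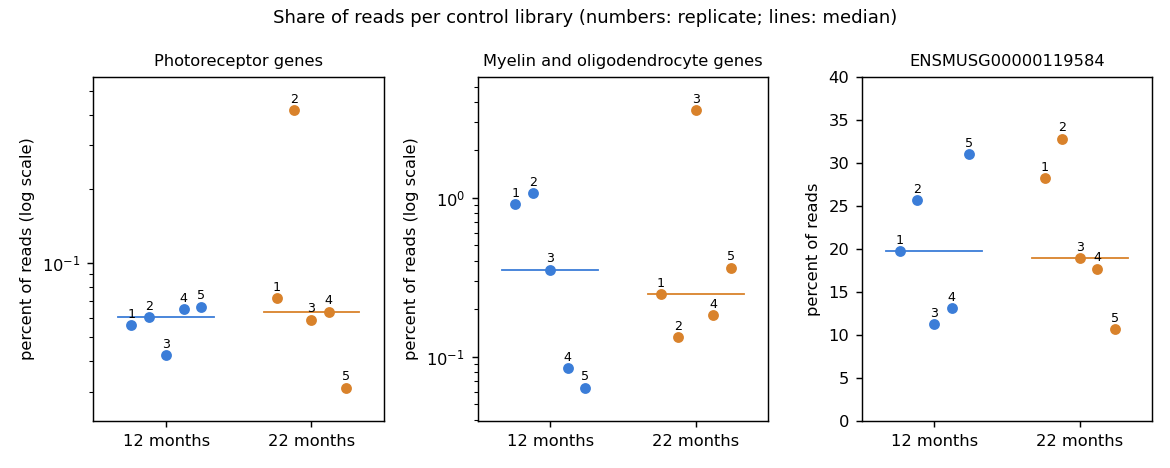
Percent of reads on the listed photoreceptor genes, on the listed myelin genes (both on log axes) and on ENSMUSG00000119584 (linear axis) in each control library, by age, with the replicate number beside each point and the median as a line. The 22-month replicate 2 stands at 0.416% photoreceptor reads and the 22-month replicate 3 at 3.54% myelin reads, each apart from the other 4 libraries of that age.

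No gene passed an adjusted p of 0.05 between 22 and 12 months (0 of 15118 tested, 0%; edgeR's quasi-likelihood test with Benjamini-Hochberg adjustment, lowest adjusted p = 1). At an unadjusted p under 0.05 there were 530 genes (3.51%), of which 323 (2.14%) had higher and 207 (1.37%) lower fitted levels at 22 months. Log2 fold changes, always 22 less 12 months, were above 0 for 51.6% of genes, with a median of 0.02. Their median standard error was 0.90, so the precision for most genes was low. Every 22-month library lay above every 12-month library in 53 genes (0.351%) and below in 31 (0.205%).

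Leaving out the photoreceptor-rich library gave the same count of 0 calls among 15050 genes, with 477 genes (3.17%) at an unadjusted p under 0.05, 299 higher (1.99%) and 178 lower (1.18%). The ages then did not overlap in 96 genes with higher (0.638%) and 46 with lower levels (0.306%), and 50.6% of genes lay above 0. With limma voom no gene was called either. DESeq2 called 23 genes, 14 with higher and 9 with lower levels at 22 months (0.0936% and 0.0602% of the genes with an adjusted p). Of these, 16 had 0 reads in every library of one age, and 8 had more than 90% of their reads in a single library. The ages did not overlap in 5 of the 23 (over all genes 0.351% lay wholly above and 0.205% wholly below). Tsix, the antisense partner of Xist, was among the 23 genes, with 18.9 and 36.5 CPM in 12-month replicates 1 and 2 and 0 elsewhere. The libraries mark no strand, so reads of Tsix and Xist cannot be told apart where the genes overlap. Pno1 is a factor of small ribosomal subunit assembly and had the lowest edgeR p of all genes (0.000148). Pno1 measured 2.52, 2.80, 5.64, 1.08 and 0.222 CPM at 22 months and 0 in all 12-month libraries, all low levels. A count of 0 allows up to 3 reads, which is 0.162 to 0.262 CPM depending on the library, a limit that covers counting error only.

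The genes nearest to a call that had reads throughout were examined next, taking the 10 smallest p in each direction among genes of at least 2 mean log2 CPM (CPM are counts scaled to library totals after TMM normalisation). Of the 7586 genes at that level, 82 (1.08%) had an unadjusted p under 0.05. All 20 chosen genes had an adjusted p of 1 in edgeR and none passed. The choice also required 4 of 5 libraries of each age to lie beyond the other age's median, so their separation is a description. Atp9a, a flippase that moves phospholipids between membrane leaflets, measured 47.7, 57, 65.2, 54.6 and 63.6 CPM at 22 months and 25.7, 18.7, 16, 32.5 and 28.1 CPM at 12 months. The ages did not overlap, and the log2 fold change was 1.25 ± 0.41 (SE). Without replicate 2 it was also 1.25.

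Arl14ep measured 8.03, 27.4, 6.77, 12.7 and 29.2 CPM at 22 months against 3.53, 2.93, 5.83, 6.11 and 4.77 CPM at 12 months. Its log2 fold change of 1.86 ± 0.55 had the smallest p of the 20 (unadjusted 0.00277), and its lowest 22-month library lay just above its highest 12-month library. Pip5k1a, a kinase that makes the membrane lipid phosphatidylinositol bisphosphate, measured 2.36, 9.70, 12.7, 5.86 and 14.8 CPM against 1.64, 2.20, 1.66, 2.00 and 2.28 CPM. Here 4 of 5 older libraries stood well apart and replicate 1 lay close to the younger ones. Lrfn4, a synaptic adhesion molecule, separated by a small margin (lowest 7.05 CPM at 22 months, highest 7.01 CPM at 12 months).

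Raver1, Prrc2c, Eif4b, Mcam and Rorb had the same direction, each with overlapping ages. Rorb, a nuclear receptor of retina and brain, had 91.8 CPM in the photoreceptor-rich library, and its log2 fold change went from 1.17 ± 0.41 to 0.81 without it. Mcam, an adhesion molecule of vessel walls, had a log2 fold change of 1.08 ± 0.40 and of 0.92 without replicate 2.

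In the other direction, Wdr41, a partner of C9orf72 in lysosomal signalling, measured 10.2, 29.2, 22.7, 26.6 and 15.6 CPM at 22 months and 34.4, 44.7, 32.1, 51.3 and 39.4 CPM at 12 months. The ages did not overlap, with a log2 fold change of -0.95 ± 0.36. Commd6, of a family that restrains NF-kappaB, measured 9.60, 4.37, 4.89, 11.5 and 10.2 CPM against 24.9, 13, 36.6, 15.1 and 12.3 CPM, a log2 fold change of -1.33 ± 0.51 without overlap. Zfp384 (-1.11 ± 0.39) touched at 19 CPM in both ages.

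Mid1, a ubiquitin ligase on microtubules, had the smallest p of the lower genes (unadjusted 0.0041) at -1.32 ± 0.41. It measured 80.8, 29.2, 17.5, 45.3 and 26 CPM at 22 months and 77.2, 126, 138, 114 and 40.8 CPM at 12 months. The ages overlapped, with 22-month replicates 1 and 4 within the younger range and 12-month replicates 1 and 5 within the older. Pcx, pyruvate carboxylase, which astrocytes use to refill the citric acid cycle, measured 26.9, 44.6, 27.8, 46.1 and 34.2 CPM against 72.3, 44.7, 99.5, 65.1 and 58.9 CPM (-0.92 ± 0.33). The remaining genes were Ammecr1l, Caskin2, Six4, Dlgap1 and Tspyl4, with log2 fold changes from -1.66 (Six4) to -0.89 (Ammecr1l).

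**Figure D2:**
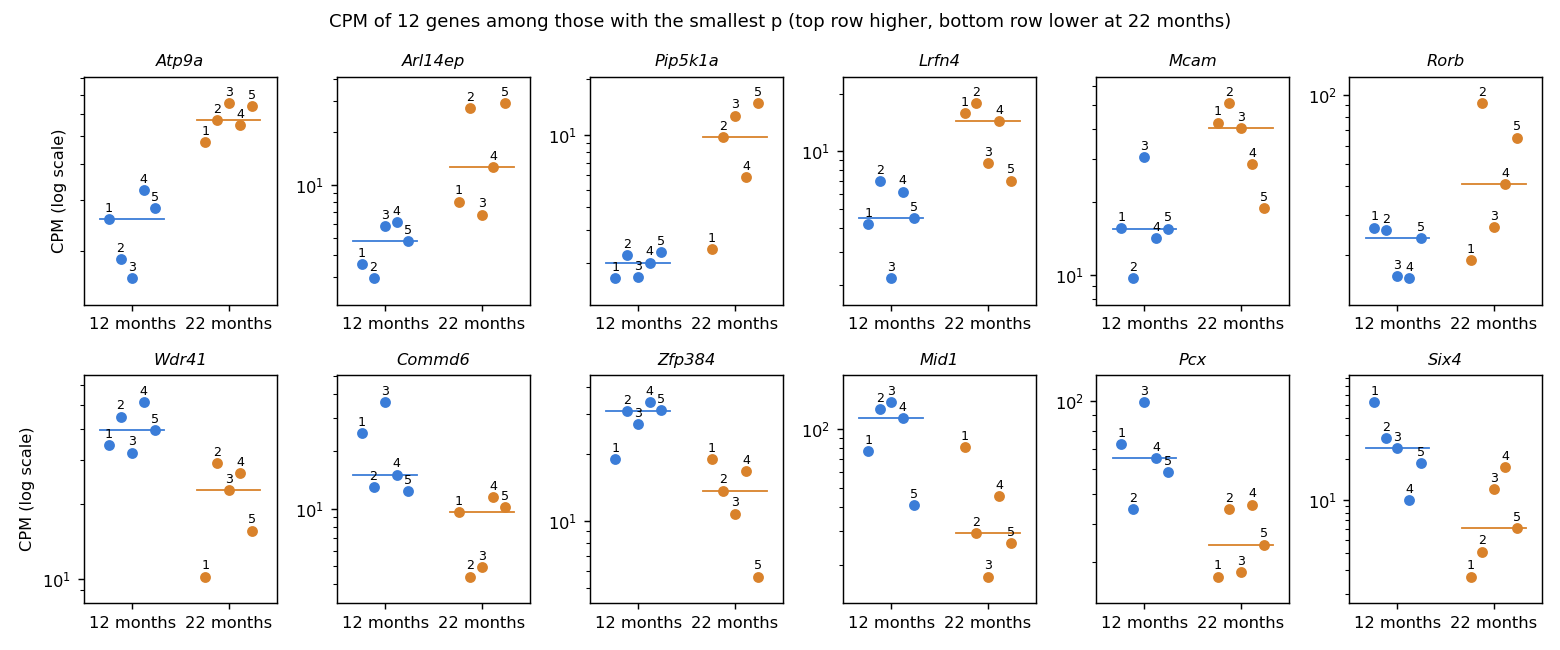
CPM (log axis) of 12 genes among those with the smallest p by direction, in each control library by age, with the replicate number beside each point and the median as a line. Atp9a, Arl14ep, Pip5k1a and Lrfn4 lie higher at 22 months without overlap and Wdr41, Commd6 and Zfp384 lower, while no gene passed the adjusted test.

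Interferon response genes were the first of the inflammatory groups. Type I interferon acts through Jak kinases on Stat proteins, which together with Irf9 bind the interferon-stimulated response element before antiviral genes. The core of this element was searched as GAAA, any 2 bases, then GAAA. Of 43 listed genes 42 were tested: 36 had a log2 fold change above 0 (51.6% of all genes did), with a median of 0.48 beside 0.02 over all genes. None of the 42 reached an unadjusted p under 0.05. In 60-base windows before the start of Isg15, a ubiquitin-like modifier, of Ifit3, which binds foreign RNA, and of Rsad2, the antiviral enzyme viperin, the element's letters were present. They are shown in the direction of the gene, with full matches to the core or its reverse complement in capitals, from RefSeq on GRCm38.p6, to show what these members share.
Isg15, chr4:156200850-156200909, minus strand: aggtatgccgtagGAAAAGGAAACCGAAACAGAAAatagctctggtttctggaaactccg
Ifit3, chr19:34583382-34583441, plus strand: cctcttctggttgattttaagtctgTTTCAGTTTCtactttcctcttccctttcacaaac
Rsad2, chr12:26456538-26456597, minus strand: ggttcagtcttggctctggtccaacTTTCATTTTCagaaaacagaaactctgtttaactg
Within 250 bases before the start, on either strand and with overlapping matches allowed, 12 of the 31 members with a promoter in the table held these letters (38.7%). The share was 3.46% over all 27025 genes of the table, 20% (3 of 15) for the MHC class I list and 10% (1 of 10) for complement. A match is a description of the letters.

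The values behind that median came mainly from the library rich in myelin. Ifit3 measured 39.2, 60, 317, 28.7 and 12.5 CPM at 22 months and 7.59, 212, 18.1, 13.1 and 111 CPM at 12 months. The 22-month replicate 3 was the highest library and 12-month replicate 2 the next, and the ages overlapped. The log2 fold change of Ifit3 was 0.34 ± 1.01, and -1.04 without replicate 3.

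Isg15 measured 2.36, 8.39, 30, 0 and 0 CPM at 22 months and 0, 10.6, 1.06, 0 and 6.77 CPM at 12 months. Rsad2 had 4.33, 12.7, 40, 1.97 and 0 CPM against 0, 1.47, 0, 6.54 and 0 CPM. Both were absent from some libraries of each age and again highest in replicate 3. Oasl1, an antiviral relative of oligoadenylate synthetases, had the smallest p of the list (unadjusted 0.0962, log2 fold change 2.19 ± 1.26). Ifit3 and its near-identical copy Ifit3b share reads that the counting had to divide, so their single values are uncertain.

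The list score averages, over the members, each gene's log2 CPM less that gene's control mean. It was -0.36, 0.68, 2.57, -0.28 and -1.54 at 22 months and -0.77, 1.06, -1.27, -1.03 and 0.93 at 12 months. The scores of the ages overlapped, with the highest and the lowest library of all 10 at 22 months. Without replicate 3 there were 16 of 41 tested members above 0 (49% of all genes in that fit) and the median was -0.33. Leaving out the photoreceptor-rich library gave a median of 0.54, and leaving out both gave -0.67. With only the control libraries rich in Y-linked transcripts, which drops 12-month replicates 1 and 2, the median was 0.79 (39 of 42 above 0). The median of the list was below 0 in 2 of the 24 alternatives, both without 22-month replicate 3. Replicate 3 also had the highest myelin score, 3.51. The next highest myelin scores, 1.98 and 1.91 in 12-month replicates 1 and 2, came with interferon scores of -0.77 and 1.06. The lowest, -2.39 in 12-month replicate 5, came with 0.93. A part of myelin RNA in the result was not tested. The 13 tested ligands, receptors and sensors of interferon had a median of -0.23 (6 above 0). Among them Ifngr1 and Jak1, the interferon gamma receptor chain and the kinase it uses, were at -0.33 ± 0.54 and -0.32 ± 0.34. Ifnar1 and Ifnar2, the chains of the type I receptor, were at -0.23 ± 0.89 and 0.46 ± 1.05, and the sensor Tlr3 at 0.50 ± 0.47.

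**Figure D3:**
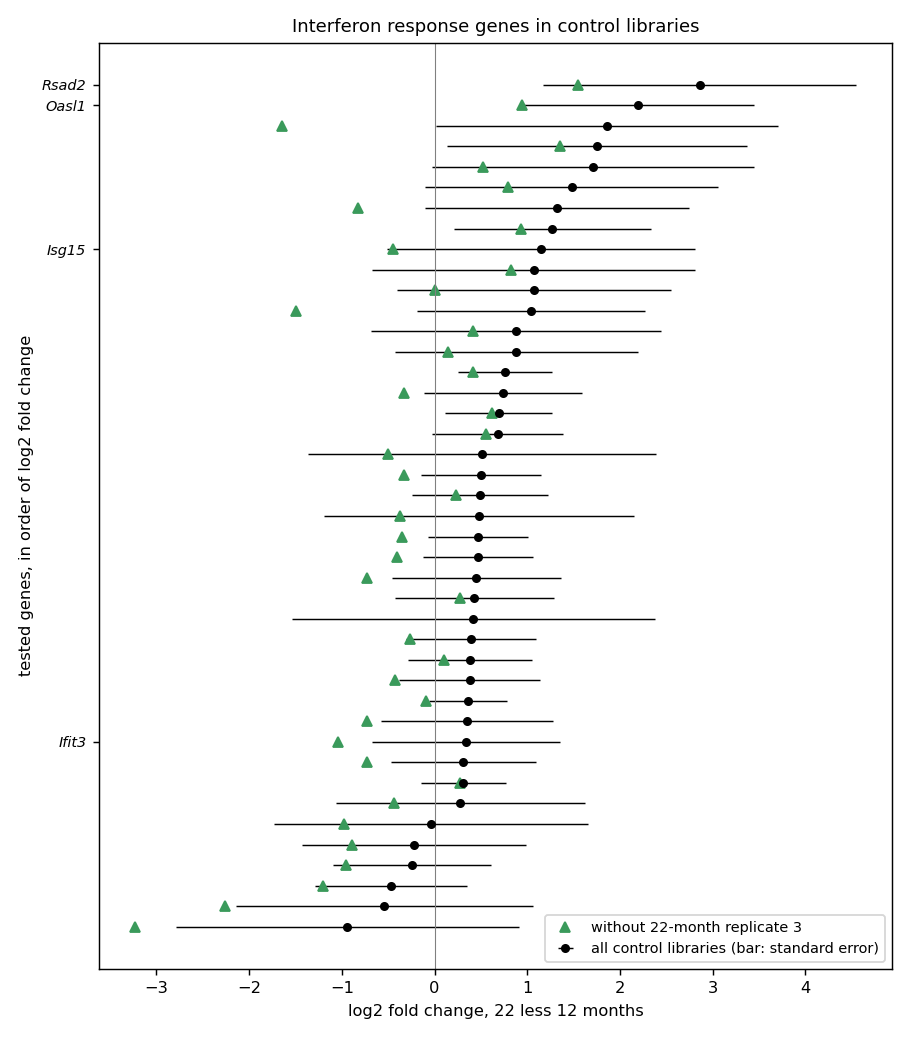
Log2 fold change of each tested interferon response gene, 22 less 12 months, in order of size with 4 described genes labelled, with all control libraries (black points with standard error bars) and without 22-month replicate 3 (green triangles). With all libraries 36 of 42 genes lie above 0, and without replicate 3 it is 16 of 41.

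Complement genes were described next. C1q starts the classical pathway, C2 and C4b carry it on, and C3 is the component on which all pathways meet. Log2 fold changes were above 0 in 15 of 19 tested members, the median was 0.59, and none reached an unadjusted p under 0.05. C1qa measured 36.3, 64.4, 241, 87.5 and 59.3 CPM at 22 months and 33.8, 77.9, 41, 40.6 and 48.4 CPM at 12 months. Its log2 fold change was 1.02 ± 0.55 (unadjusted p = 0.0769), with replicate 3 far above the rest, and 0.36 without it. C1qb was at 1.18 ± 0.61, and at 0.83 without replicate 3.

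C2 measured 135, 569, 826, 269 and 410 CPM at 22 months and 228, 174, 357, 168 and 234 CPM at 12 months. Of the older libraries 3 exceeded all younger ones and replicate 1 lay below all of them (0.93 ± 0.50, and 0.57 without replicate 3). C3 measured 23.2, 11.7, 139, 41.2 and 25.3 CPM against 63.1, 46.2, 28.3, 23 and 21.6 CPM. Its log2 fold change of 0.40 ± 0.54 was -0.52 without replicate 3. C4b was at 0.36 ± 0.37 and at 0.03 without that library. The median of the list was 0.54 without the photoreceptor-rich library, 0.25 without replicate 3 and 0.14 with neither, above 0 in all 24 alternatives.

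MHC class I genes, which present peptides to CD8 T cells, had 16 of 19 tested members above 0 and a median of 0.50. H2-Q6, of the non-classical Q region, was the only member with an unadjusted p under 0.05 (0.0202), and the background for that direction was 2.14%. H2-Q6 measured 55.5, 79.2, 277, 69.3 and 40.5 CPM at 22 months and 30.7, 58.7, 52.8, 29.5 and 46.7 CPM at 12 months. Its log2 fold change was 1.26 ± 0.50, and 0.49 without replicate 3. Its neighbours in the Q region are similar in sequence, so how reads were divided among them is uncertain.

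B2m, the light chain of all class I molecules, measured 151, 150, 562, 265 and 92 CPM at 22 months and 153, 245, 157, 103 and 155 CPM at 12 months. With replicate 3 left out its log2 fold change went from 0.59 ± 0.42 to 0.02. The median of the list was -0.07 without replicate 3 and 0.53 without replicate 2. MHC class II genes had 5 of 7 tested members above 0 and a median of 0.22. Cd74, the invariant chain, measured 110, 316, 185, 413 and 772 CPM at 22 months and 330, 80.8, 471, 441 and 220 CPM at 12 months, with no separation by age (0.22 ± 0.57).

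Microglia are the resident macrophages of the nervous tissue. Their homeostatic genes had 14 of 19 tested members above 0 and a median of 0.36. In bulk tissue fewer cells of a type and less RNA per cell cannot be told apart. Cx3cr1, the fractalkine receptor, measured 39.3, 88.7, 154, 66.2 and 144 CPM at 22 months and 61.6, 81.1, 143, 95.1 and 34.1 CPM at 12 months. Both ages covered the same range (0.25 ± 0.53). Tmem119 was at 0.36 ± 0.57 and P2ry12 at 1.36 ± 1.21, and without replicate 3 these were 0.01 and 0.82.

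The activation and phagocytosis genes of microglia had 10 of 20 tested members above 0 and a median of -0.01, or 6 of 20 and -0.33 without replicate 3. Apoe, the main lipid carrier of glia, was at -0.08 ± 0.37 and the lysosomal marker Cd68 at 0.08 ± 0.67 (-0.44 without replicate 3). Among cytokines, Il1b was at 0 in all 10 libraries and Tnf in 9. The 17 tested cytokines and chemokines had a median of 0.01 (9 above 0), and of -0.34 without replicate 3 (4 of 17 above 0).

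Myelin and oligodendrocyte genes spread widely among libraries of the same age. Mbp, which compacts the sheath, and Mog, on its outer face, are made by mature oligodendrocytes. Mbp measured 987, 193, 5480, 278 and 277 CPM at 22 months and 1600, 2300, 326, 79.9 and 97.7 CPM at 12 months. The 22-month replicate 3 was highest, 12-month replicates 1 and 2 came next, and 12-month replicates 4 and 5 were lowest. Mog followed the same order at its top end (903 CPM in replicate 3, 198 and 257 CPM in 12-month replicates 1 and 2).

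Log2 fold changes were 0.71 ± 1.07 for Mbp and 0.96 ± 1.43 for Mog. The list had 21 of 23 tested members above 0 and a median of 0.75. Without 22-month replicate 3 a single member lay above 0 and the median was -1.21. With only the control libraries rich in Y-linked transcripts, which drops 12-month replicates 1 and 2, the median was 2.66, and 9 of 23 members had an unadjusted p under 0.05 with higher levels (2.31% of all genes in that fit). The median of the list was below 0 in 2 of the 24 alternatives. Both lacked 22-month replicate 3 (-1.21, and -1.1 with replicate 2 also left out). Leaving out 12-month replicates 1 and 2 raised the median without changing its sign. Mal, a lipid raft protein of myelin, was the only member with an unadjusted p under 0.05 (0.0421) over all control libraries, where the background for that direction was 2.14%. It was at 1.14 ± 0.53, and at 0.40 without replicate 3. Precursor genes had a median of 0.14 (6 of 10 above 0), and of -0.45 without replicate 3. Pdgfra, the growth factor receptor of precursors and of fibroblasts, was at -0.76 ± 0.47.

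Photoreceptor genes had the highest median of all lists, 4.33, with 12 of 14 tested members above 0. Of these, 7 had higher levels at an unadjusted p under 0.05 (2.14% of all genes), a description, since the richness of replicate 2 in these transcripts was known beforehand. Of the 33 genes listed, 14 passed the filter on low counts. Gnat1, the rod transducin, measured 2.05, 733, 1.82, 1.62 and 0.371 CPM at 22 months and 0.981, 4.48, 3.91, 4.11 and 2.90 CPM at 12 months. It was high in replicate 2 alone. Without that library 5 of 13 tested members lay above 0, the median was -0.33, and 1 member had higher and 1 lower levels at an unadjusted p under 0.05 (1.99% and 1.18% of all genes). Gnat1 went from 5.49 ± 1.72 to -1.16. Inner retinal genes did not share this: 3 of 9 tested members lay above 0 and the median was -0.25.

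**Figure D4:**
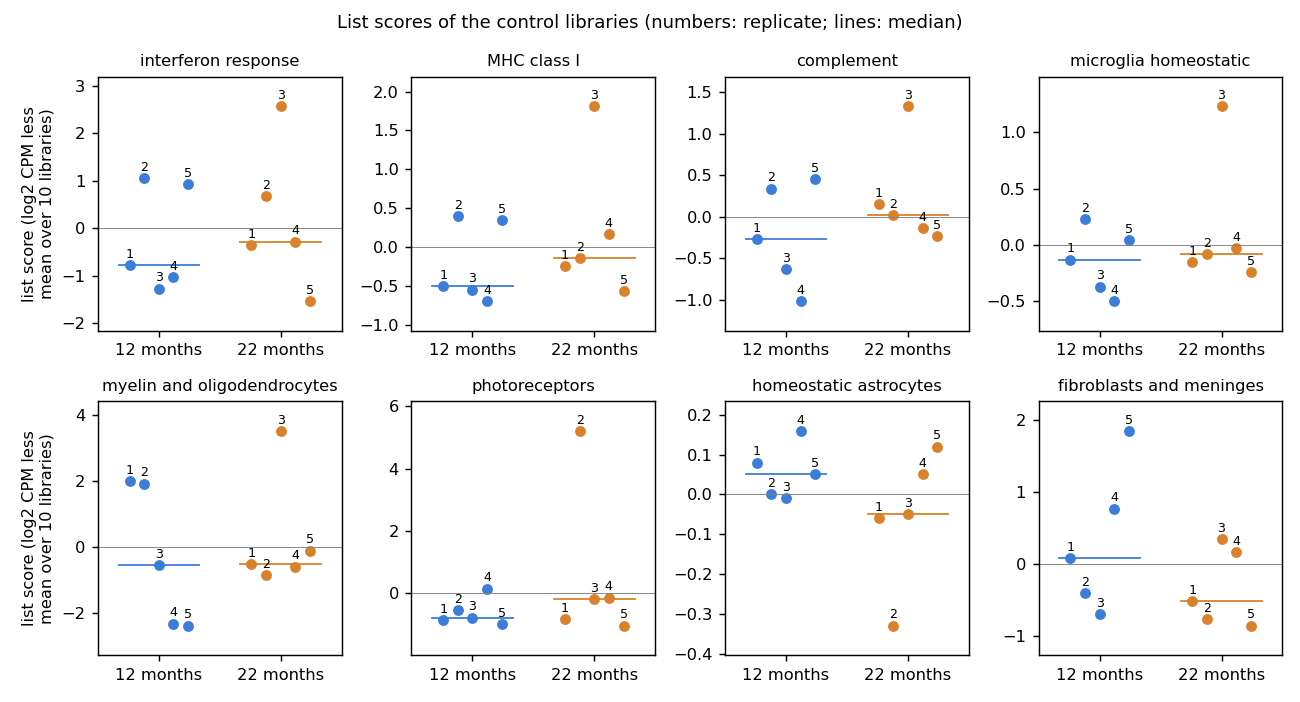
List scores (mean log2 CPM of the tested members less each gene's mean over the 10 control libraries) of 8 gene lists, by age, with the replicate number beside each point and the median as a line. The 22-month replicate 3 is the highest point for interferon response, MHC class I, complement, homeostatic microglia and myelin genes, replicate 2 for photoreceptors and 12-month replicate 5 for fibroblast genes.

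Astrocyte genes, among them the abundant Gfap, were described next. Gfap measured 9830, 8760, 6040, 8460 and 8290 CPM at 22 months and 12600, 9730, 5350, 10100 and 7480 CPM at 12 months. The ages overlapped and the log2 fold change was -0.13 ± 0.33. Slc1a3, the glutamate transporter, measured 961, 1080, 1340, 1270 and 1210 CPM at 22 months and 1310, 972, 1000, 1230 and 1170 CPM at 12 months (0.04 ± 0.26). Homeostatic astrocyte genes had a median of 0.01 (12 of 22 tested above 0) and reactive astrocyte genes of 0.23 (15 of 23). Without 22-month replicate 3 these were -0.08 (7 of 22) and 0.06 (12 of 23).

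Aldoc, an astrocytic glycolytic enzyme, was at -0.94 ± 0.59, with 51.6 and 44.3 CPM in 22-month replicates 2 and 3 and 170 CPM or more in the other 8 libraries. Serpina3n, a protease inhibitor of reactive astrocytes, was at -0.05 ± 0.53, and at -0.62 without replicate 3. Aqp4, the water channel of endfeet, went from 0.27 ± 0.50 to -0.29 without that library. Vim, an intermediate filament, was at 0.23 ± 0.40, and at 0.05 without replicate 2.

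Axonal and ganglion cell genes had a median of 0.13 (11 of 19 tested above 0). Nefl, the light neurofilament, measured 115, 35.5, 58.8, 27.5 and 27.4 CPM at 22 months and 37, 22.6, 58.6, 29.4 and 57.4 CPM at 12 months. The 22-month replicate 1 stood above the others, and the log2 fold change was 0.37 ± 0.55. Nefm was at -0.13 ± 0.53 and Rbpms, a marker of ganglion cell bodies, at 0.37 ± 0.50.

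Matrix genes bear on the fibrosis that the series asked about. Fn1, fibronectin, measured 29, 8.65, 4.26, 27.3 and 35.2 CPM at 22 months and 21.9, 32.7, 14, 25.2 and 103 CPM at 12 months. Its highest library was 12-month replicate 5 and its lowest the 22-month replicates 2 and 3, with a log2 fold change of -0.91 ± 0.56. The 32 tested fibronectin, matricellular and elastic fibre genes had a median of -0.14 (14 above 0). Col1a2, a chain of type I collagen, measured 259, 205, 169, 231 and 167 CPM at 22 months and 239, 262, 173, 202 and 263 CPM at 12 months. The ages covered nearly the same range (-0.14 ± 0.32).

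Fibrillar collagens had a median of 0.25 (6 of 10), and of -0.10 without replicate 3, while Col3a1 was at -0.09 ± 0.62. Basement membrane genes had a median of -0.02 (10 of 23), with Col4a1 at 0.32 ± 0.40 and Lamc1 at -0.09 ± 0.25. Crosslinking and remodelling genes had a median of 0.01 (15 of 29), and 3 of them had an unadjusted p under 0.05 with lower levels at 22 months, where the background was 1.37%. Without 22-month replicate 2 it was 2 of 29, with a background of 1.18%. Of the 3 genes, Timp4, a metalloprotease inhibitor, was at -1.20 ± 0.51, with 9.35 and 15.7 CPM in 22-month replicates 2 and 3 against 62.6 to 96.3 CPM at 12 months. Adamts9 had 0.877 CPM in replicate 3 and 0 in the other older libraries, with 2.55, 2.85, 0, 2.76 and 9.32 CPM at 12 months.

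TGF-beta signalling genes, whose ligands drive matrix production, had a median of -0.15 (9 of 25 tested above 0). Without 22-month replicate 2 this median was -0.0 (12 of 25). Tgfb2, the isoform typical of the eye, measured 326, 346, 325, 447 and 319 CPM at 22 months and 338, 316, 219, 305 and 385 CPM at 12 months, in overlapping ranges (0.17 ± 0.30). Tgfbr1 was at -0.07 ± 0.46 and Ccn2, a target of the pathway and of Yap, at -0.81 ± 0.58. Genes of Toll-like receptor 4 and NF-kappaB had a median of 0.15 (17 of 27), and of -0.00 without replicate 2. Tlr4 itself measured 21.6, 15.4, 19.7, 27.5 and 13.7 CPM at 22 months and 11.1, 31.8, 4.57, 20.1 and 25.2 CPM at 12 months. The younger libraries spread more widely and enclosed the older ones (0.08 ± 0.68).

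Fibroblast and meningeal genes had the lowest median among lists of at least 5 tested members, -0.57, with 4 of 14 above 0. Lower levels at an unadjusted p under 0.05 were found for 2 of 14, where the background was 1.37%. Those were Ptgds and Igf2, both abundant in meninges. Ptgds measured 2.13, 0, 44.4, 2.21 and 11.8 CPM at 22 months and 9.23, 12.4, 16.4, 21.5 and 660 CPM at 12 months. Igf2 had 74.7 CPM in the same 12-month replicate 5 and 0.297 to 4.37 CPM in the other 9 libraries. That library thus set both values, and without it the median of the list was -0.16. Lum, a collagen-binding proteoglycan of fibroblasts, was at 0.01 ± 0.30 and Dcn at 0.22 ± 0.49.

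Endothelial genes had a median of -0.32 (7 of 21 tested above 0), below 0 in all 24 alternatives. Tek, the angiopoietin receptor, measured 33.8, 11.2, 24.8, 62.6 and 50.7 CPM at 22 months and 79.8, 30.5, 50.9, 112 and 62 CPM at 12 months. The ages overlapped (-0.87 ± 0.47, unadjusted p = 0.0782). Genes of pericytes and smooth muscle had a median of -0.15 (7 of 16). Cnn1, a calponin of smooth muscle, was at 1.24 ± 0.72, with 698 CPM in 22-month replicate 2 and 0.82 without it.

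Processes associated with ageing in other tissues were examined last. Senescence and p53 target genes had a median of 0.09 (13 of 24), and the cell cycle inhibitor Cdkn1a measured 57.8, 34.4, 70.4, 64.2 and 84.8 CPM at 22 months and 47, 117, 130, 98.8 and 52.4 CPM at 12 months. Its ages overlapped (-0.52 ± 0.38), and Cdkn2a, the p16 locus, was at 0 in all 10 libraries. Secreted senescence factors had a median of -0.11 (8 of 22). Without 22-month replicate 2 the median was 0.03 (12 of 22) for these factors and -0.04 (10 of 24) for the senescence and p53 targets. Lysosome and autophagy genes had a median of 0.09 (21 of 31), the unfolded protein response 0.01 (16 of 31) and antioxidant genes -0.02 (15 of 30).

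Transcripts of the mitochondrial genome were above 0 in 14 of 14 tested genes, with a median of 0.18 and none at an unadjusted p under 0.05. Cytochrome b, mt-Cytb, measured 415, 273, 224, 297 and 309 CPM at 22 months and 162, 335, 161, 118 and 327 CPM at 12 months. Of the younger libraries 3 lay below all older ones, and the 12-month replicates 2 and 5 lay within the older range (0.46 ± 0.35). These 14 transcripts are cut from the same precursors, so their shared sign is not 14 separate observations. The median ran from 0.03 to 0.43 over the alternatives. Nuclear genes of oxidative phosphorylation had a median of 0.07 (35 of 64).

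Immediate early genes, which respond within minutes to stimulation or handling, had a median of 0.25 (14 of 22), with 2 of 22 higher at an unadjusted p under 0.05, where the background was 2.14%. Fos measured 10.9, 1.83, 27.1, 27.2 and 8.75 CPM at 22 months and 5.69, 5.78, 3.18, 2.33 and 7.05 CPM at 12 months. Of the older libraries 4 lay above all younger ones and replicate 2 below them (1.66 ± 0.66, unadjusted p = 0.0202, and 1.94 without replicate 2). Arc was found in 3 older libraries, at 1.97 to 5.45 CPM, and at 0 in all others. Clock genes had a median of 0.07 (11 of 20), with Per2 at -1.56 ± 0.68, Per1 at -0.66 ± 0.49 and Rorb at 1.17 ± 0.41. At an unadjusted p under 0.05, 2 of 20 were higher and 1 lower, where the backgrounds were 2.14% and 1.37%. Without 22-month replicate 2 it was 0 in each direction (backgrounds 1.99% and 1.18%), and the median was -0.02. The hour of tissue collection was not used here.

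**Figure D5:**
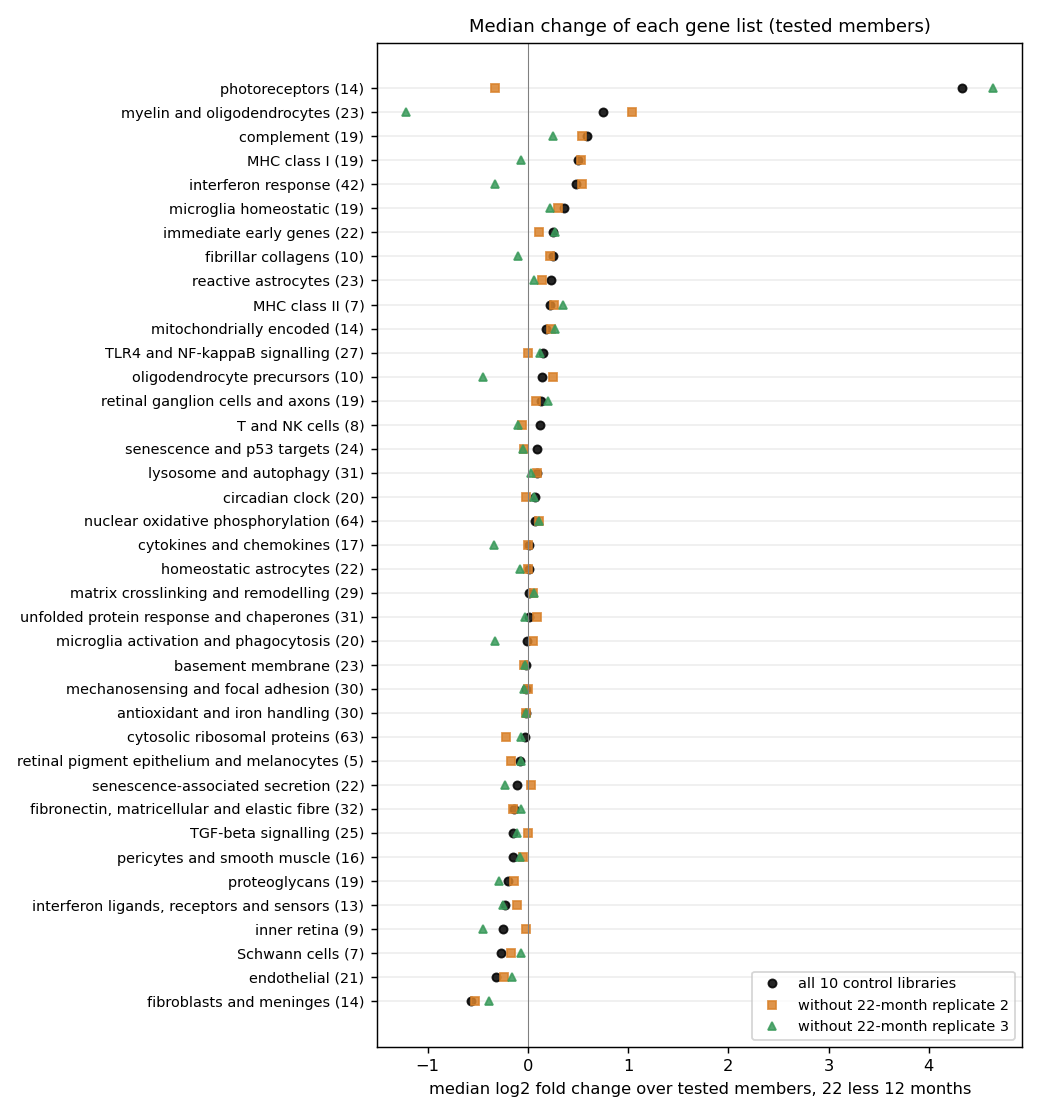
Median log2 fold change, 22 less 12 months, over the tested members of each gene list with at least 5 of them (number in brackets), with all 10 control libraries (black), without 22-month replicate 2 (orange squares) and without 22-month replicate 3 (green triangles). Photoreceptor genes move from 4.33 to -0.33 without replicate 2, and myelin, interferon response and MHC class I genes cross 0 without replicate 3.

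The difference with age in controls was set against that in the libraries labelled B6.EDA+/+, 3 at 22 and 5 at 12 months. No gene passed the interaction test (0 of 15118, 0%; edgeR, threshold 0.05), with 608 genes (4.02%) at an unadjusted p under 0.05. DESeq2 called 37 genes (29 above 0, 0.197%, and 8 below, 0.0545%), and limma voom 1, Pja1, a ubiquitin ligase with at most 5.07 CPM in any control library. Over the myelin list the median was 0.75 in controls and -1.87 in B6.EDA+/+ libraries, with 2 of 23 members at an unadjusted interaction p under 0.05. Single libraries stood apart on both sides: of the B6.EDA+/+ libraries, 12-month replicate 3 had 3.33% myelin reads and the others 0.139% to 0.621%, and the control median was -1.21 without 22-month replicate 3. Over mitochondrially encoded genes it was 0.18 and -0.70, with 2 of 14. The differences between these medians were not tested. C1qa had an interaction of 1.82 on the log2 scale (unadjusted p = 0.044), C2 of 1.61 (unadjusted p = 0.0495) and Actn1, an actin crosslinker, of 1.61 (unadjusted p = 0.000247), with none passing adjustment. C1qa was at 1.02 in controls (0.36 without 22-month replicate 3) and at -0.8 in B6.EDA+/+ libraries. C2 was at 0.93 in controls (0.57 without that replicate) and at -0.68 in B6.EDA+/+ libraries. Between the ages of B6.EDA+/+ libraries, Actn1 had the lowest p of all genes (edgeR unadjusted p = 0.000122), where the lowest adjusted p was 0.961.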

How the data were processed

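Libraries were made with SMART-Seq v4 and Nextera XT, aligned with STAR and quantified by RSEM, per the labels' protocols. The submitters' processing notes name the build GRCm39. Annotation and tool versions: not given in the sources used here. Expected counts per gene, as deposited by the authors, are RSEM estimates. A fraction was present in 3.59% of the values, and counts were rounded to integers before fitting. The deposited TPM values of the authors, scaled for length, served only to compare levels between genes. These kits mark no strand, so overlapping and antisense genes cannot be told apart. Symbols of 52083 of 55416 identifiers came from the annotation of another build. Libraries of a group differed beyond sampling noise (lowest chi-square per degree of freedom 39.1).

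Genes were kept with filterByExpr and scaled by TMM. A quasi-likelihood model of all 18 libraries with 4 group means was fitted in edgeR 4.0.16 (R 4.3.3), robust, two-sided, with Benjamini-Hochberg adjustment and a threshold of 0.05. CPM use TMM-scaled totals, and log2 CPM a prior count of 2. Library values were compared by exact permutation tests. The script was tested on simulated data. Alternatives were DESeq2 1.42.0, limma 3.58.1 voom with quality weights, other scalings, filters and covariates, control libraries only, Y-linked libraries only, and each control library left out. Leaving out 22-month replicates 2 and 3 together, and leaving out replicate 2 within the subsets, was chosen after seeing the data. The members and the 46 gene lists were chosen with earlier results of these data known. Named genes are the 10 smallest p per direction, 3 leads of each described list and up to 3 members of smallest p. Tsix and Pno1 were chosen after their values were seen. Some genes that these rules name are not reported here.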

Additional observations from a re-analysis of the deposited data

Results flagged for a closer look

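In 11 of 140 groups of 5 control libraries the highest or lowest library stood apart by Dixon's test at the 95% level (gap over range above 0.71). Chance marks about 1 in 20 of independent groups. These groups reuse the same libraries, the myelin share and score rest on largely the same genes, and some genes were chosen for their separation. The count of 11 is therefore a description and cannot be set against that share. Photoreceptor levels were left out of this count, since they had singled out 22-month replicate 2 beforehand. As a description, its photoreceptor score was 5.22 (-1.04 to -0.14 in the other 22-month libraries). The 22-month replicate 3 was set apart by its myelin share of 3.54%, its myelin score of 3.51 (others -0.87 to -0.12), its precursor score of 1.13 (others -0.57 to -0.10), its complement score of 1.33 (others -0.23 to 0.15) and its homeostatic microglia score of 1.23 (others -0.24 to -0.03).

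At 12 months, replicate 3 had a score of -1.57 for interferon ligands, receptors and sensors (others 0.01 to 0.51), replicate 4 had 0.38 for TGF-beta signalling (others -0.05 to 0.06) and replicate 2 had 0.59 for mitochondrially encoded genes (others -0.80 to -0.40). Of the genes nearest to a call, Prrc2c stood at 5.85 log2 CPM in 12-month replicate 5 (others 4.94 to 5.03), Caskin2 at 3.58 in replicate 4 (others 4.23 to 4.45) and Tspyl4 at 4.78 in replicate 3 (others 6.38 to 6.67).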

How the results depend on the processing

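No paired analysis was possible because the labels give no replicate numbers that the groups share. The age comparison called 0 genes in 23 of the 24 alternatives, including all 10 that left out a control library, and 23 genes with DESeq2. The interaction called 37 genes with DESeq2, 1 with limma voom and 0 in the other fits. Genes at an unadjusted p under 0.05 numbered 530 and ran from 477 to 691 when a control library was left out. They were 109 in a refit of genes of at least 2 mean log2 CPM alone, 2463 without a filter, 198 with control libraries only and 159 with those less replicate 2. For the interaction 608 became 916 with voom, 219 with the stricter filter and 1647 without one. The median of 36 of the 46 lists changed sign in at least 1 alternative, as did 90 of the 214 named genes that were not among the 20 with the smallest p. Those 20 were chosen for their separation, so their kept sign is no sign of stability. No sign change involved a called value. The difference in genes with 10 or more reads turned from 129 to -67.8 with a minimum of 50 reads, and that in the share of ENSMUSG00000119584 from 1.5 to -1.29 percentage points without replicate 2. The causes were not tested. With 5 libraries an age and a median standard error of 0.90, a missed threshold does not show that a gene was the same at both ages.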

Other observations

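Genes of other cell types that a capture at the back of the eye could include were present at low levels in the control libraries. The listed skeletal muscle genes summed to at most 9.88 CPM in a library, with Ttn at up to 8.96 and Neb at up to 6.99 CPM, while Ckm was at 0 in all 10. The listed genes of erythrocytes summed to 0.326 to 18.7 CPM, with Hba-a2 at up to 14.7 and Hbb-bs at up to 3.94 CPM. Those of pigment epithelium and melanocytes summed to 10.3 to 48.2 CPM. Rpe65, of the pigment epithelium, had reads only at 12 months, at 0.327, 0.652 and 3.58 CPM in replicates 1 to 3, and the melanosome gene Pmel was at 0 in all 10. T cell transcripts were present at low levels: Cd3e measured 4.25, 4.28, 15.5, 10.5 and 14.1 CPM at 22 months and 1.24, 16.3, 8.14, 6.60 and 15.7 CPM at 12 months, with no separation by age (0.02 ± 0.92).

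Transcripts of cytosolic ribosomal proteins were unevenly represented. Rpl3 reached at most 2.21 CPM and Rps3 at most 3.73 CPM in any control library, while Rplp0 measured 20.9 to 65.1 CPM. Between the ages the list had a median log2 fold change of -0.03 (26 of 63 tested above 0), and of -0.22 without 22-month replicate 2.

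Hspa1a, the inducible heat shock chaperone, measured 5.12, 4.54, 5.83, 5.68 and 8.23 CPM at 22 months and 0, 5.30, 1.85, 1.57 and 0.553 CPM at 12 months (1.67 ± 0.92, edgeR unadjusted p = 0.0842). The older libraries lay close together, and 12-month replicate 2 was the only younger library within their range. Manf, a chaperone-like factor of the endoplasmic reticulum, measured 9.05, 10.7, 4.14, 7.24 and 15 CPM against 4.25, 3.50, 2.85, 1.46 and 4.84 CPM (1.45 ± 0.85), with replicate 3 the only older library within the younger range. The whole list of the unfolded protein response and chaperones did not share this direction, with a median of 0.01 (16 of 31 tested above 0). No member had an unadjusted p under 0.05 in edgeR, where the backgrounds were 2.14% higher and 1.37% lower.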
